A study of Mus musculus with 2 samples.

Results

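The genes described here build and serve inhibitory synapses in the mouse brain: receptors for GABA and glycine, the enzymes that make and degrade GABA, its transporters, and the proteins that hold or deliver the receptors. They form a list of 26 genes chosen by name and function, out of 19720 genes in the deposited table. The list holds 11 GABA-A receptor subunits, 2 GABA-B receptor subunits, 4 glycine receptor subunits, 4 scaffold and trafficking genes, 3 enzymes and 2 transporters. Of the 26, 25 had a row in the table and 24 reached 20 reads when both libraries were added, which is called measured below. Glra3, a glycine receptor alpha subunit, had 1 and 3 reads and was not measured, and Glra1 was not analysed here.

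GABA and glycine open chloride channels, and GABA also acts through the G protein-coupled GABA-B receptor. GABA-A receptors are pentamers, most often of alpha, beta and gamma subunits, and the subunit mix sets their kinetics, drug response and position in the membrane. In the embryonic forebrain GABA is made mainly by neurons born in the ventral telencephalon, a part of which migrates into the cortex, and by neurons of the diencephalon. Before synapses mature, GABA often depolarises its target cells and acts as a signal for migration and proliferation.

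The samples were 2 RNA samples from C57BL/6 embryonic brain, labelled as telencephalic tissue, with dissected cerebral cortex named in the extraction protocol. The control carried floxed H2A.Z alleles (H2AZfl/fl, and its title says WT). The other sample was the H2A.Z conditional knockout (H2AZcKO), in which a gene of a histone H2A variant is targeted in the cells that express the recombinase. Neither the recombinase driver nor any pooling of animals is given in the sources used here. The titles give embryonic day 16 and a characteristics field embryonic day 12, so the age is uncertain. Triplicates are mentioned in the series design, whereas the table analysed here has 1 count column per genotype, so every difference below is between 1 library and 1 library and has no replicate error. The control library held 8474545 reads in genes and the knockout library 9028523. The targeted gene, H2afz, gave 1152 and 535 reads, or -1.16 in log2 ratio (-1.31 to -1.01). Its relative H2afv was level, with 1009 and 1095 reads, or 0.061 in log2 ratio (-0.063 to 0.19).

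All differences are log2 ratios of knockout to control after TMM scaling, so a positive value is higher in the knockout library. The range in parentheses is an exact 95% interval (Clopper-Pearson) for how a gene's reads divide between libraries, and it covers counting error only. A gene is called beyond counting error when this interval excludes 0, and apart when the libraries differ by 1.5-fold or more.

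A majority of the inhibitory signalling genes were somewhat higher in the knockout library. Of the 24 measured genes 19 had a ratio above 0, and the median log2 ratio was 0.18, against 0.0018 over all 14366 measured genes, of which 50.4% were above 0. In these bulk libraries, more cells of a type and more RNA per cell cannot be told apart. At least 1.5-fold higher were 3 of the 24, the GABA enzyme gene Gad2 and the receptor subunit genes Gabrg3 and Gabre, where 3.52% of all measured genes were. All 3 were also beyond counting error, which held with that fold for 2.02% of measured genes. Of the 24, 0 were at least 1.5-fold lower, against 5.43% of all measured genes, or 3.2% with counting error also passed. Beyond counting error, 13 were higher and 1, Gabarap, was lower, against backgrounds of 12.5% and 9.3%. Because a small ratio passes counting error more easily in an abundant gene, the same was counted at a minimum of 100 reads. Of 21 such members 12 were higher and 1 lower, and the backgrounds were 14.6% and 9.45%. The split of 13 against 1 depended on the reference. It was 6 against 3 with the median of 20 pan-neuronal genes set to 0, and 1 against 11 with that of 22 ventral telencephalic genes set to 0. These settings also moved the median of all measured genes, to -0.19 and -0.44. The backgrounds above thus do not apply to the last 2 splits, and the share of all measured genes called was not counted for them.

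**Figure D1:**
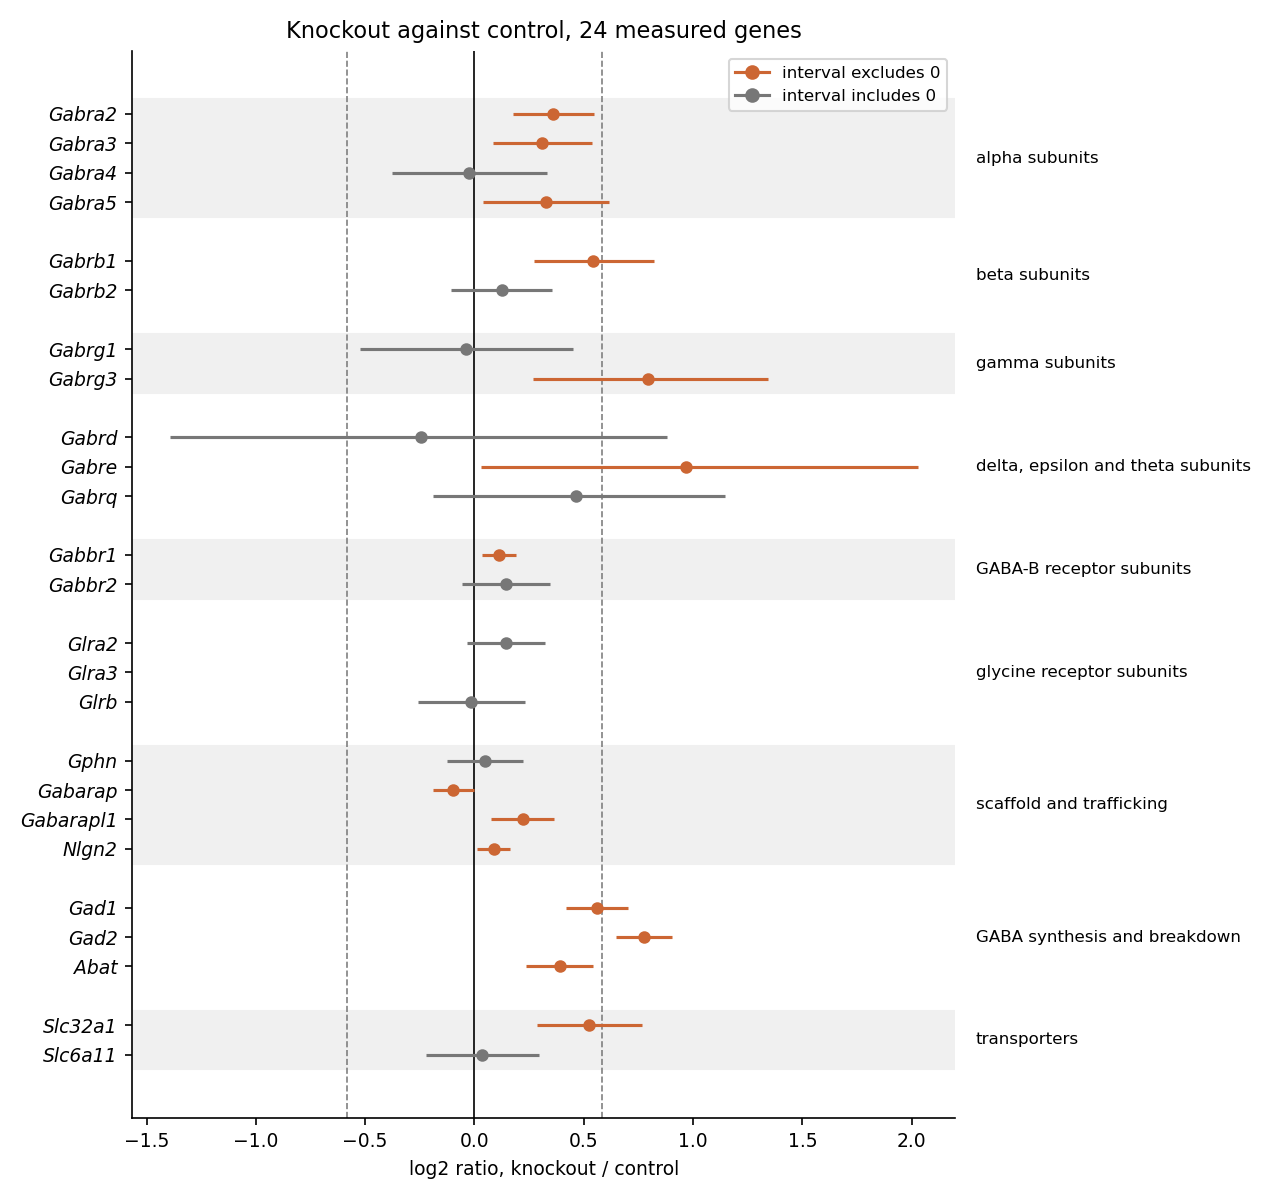
Log2 ratio of knockout to control for each of the 24 measured genes, grouped by role, with exact 95% intervals of counting error; the solid line is level and the dashed lines mark a ratio of 1.5 either way. Synthesis enzymes and the vesicular transporter gene Slc32a1 sit to the right of 0, whereas scaffold, GABA-B and glycine receptor genes lie within 0.22 of it.

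Genes that define a GABA-releasing neuron were higher beyond counting error under TMM scaling. Gad2, one of the glutamate decarboxylases that make GABA and the form associated with synaptic vesicles, gave 773 control and 1376 knockout reads. It was 1.71-fold higher, with a log2 ratio at 0.78 (0.65 to 0.90). Gad1, the decarboxylase that supplies most of the cell's GABA, gave 663 and 1016 reads, or 0.56 in log2 ratio (0.42 to 0.70). Slc32a1, the vesicular transporter that loads GABA and glycine into vesicles, gave 244 and 365 reads, or 0.52 in log2 ratio (0.29 to 0.76). Of its 2797 exon bases, 697 are shared with Gm14205 on the opposite strand, whose reads cannot be told apart from its own unless the counting used strand. None of these intervals reached 0, and the knockout library was the higher one for all 3 genes. With the ventral telencephalic median set to 0, Gad2 kept its call, whereas Gad1 at 0.12 and Slc32a1 at 0.081 were within counting error. Abat, the mitochondrial transaminase that breaks GABA down, gave 606 and 826 reads and lay at 0.39 (0.24 to 0.54), or -0.052 with the ventral telencephalic median set to 0. Slc6a11, a plasma membrane GABA transporter best known from astrocytes, was close to level with 243 and 259 reads, at 0.035 (-0.22 to 0.29).

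Ratios between genes of 1 library do not depend on scaling. For each Slc32a1 read the control held 3.17 reads of Gad2 and the knockout 3.77, a 1.19-fold difference with an interval of 0.985 to 1.44. Slc32a1 reads per Gad1 read were 0.368 and 0.359, a ratio of 0.976 (0.805 to 1.19). Gad2 reads per Gad1 read did differ, at 1.17 and 1.35, a 1.16-fold difference (1.02 to 1.33). Over 15 such pairs, chosen by gene neighbourhood or shared function with the values known, 4 differed beyond counting error.

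Gad2, Gad1 and Slc32a1 are protein-coding genes of chromosome 2, far from each other. Gad2 lies at chr2:22622205-22693874, Gad1 at chr2:70553072-70602014 and Slc32a1 at chr2:158610767-158615748, all on the plus strand in GRCm38 coordinates. Stretches before a RefSeq start of each decarboxylase gene are shown because these genes were higher together. The Gad1 stretch lies inside the annotated span of its gene, which begins further upstream. Both hold the bases before the RefSeq start (GRCm38.p6) that lie in no annotated exon, ending 122 bases before that start in Gad2 and 87 in Gad1, 5′ to 3′ on the plus strand, with each CG dinucleotide, the target of DNA methylation, in capitals.
Gad2, chr2:22622077-22622204: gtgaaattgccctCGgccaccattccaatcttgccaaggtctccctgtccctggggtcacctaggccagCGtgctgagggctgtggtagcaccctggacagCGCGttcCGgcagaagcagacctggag
Gad1, chr2:70561879-70562041: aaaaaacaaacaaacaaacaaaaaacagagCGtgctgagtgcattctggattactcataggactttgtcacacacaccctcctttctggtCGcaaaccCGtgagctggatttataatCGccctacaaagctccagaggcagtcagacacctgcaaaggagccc
The Gad2 stretch has 5 CG dinucleotides in 128 bases and a GC content of 62.5%, and the Gad1 stretch 4 in 163 bases and 46.6%.

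Promoter windows of 300 bases, from 250 before to 50 after a RefSeq start, were found for 23 of the 26 genes, 27 windows in all. Their median GC content was 60.0%, with 13 CG dinucleotides per window, against 52.7% and 7 over 32851 windows of the mouse genome. The windows of Gad1, Gad2 and Slc32a1 held 21, 14 and 17, and that of Gabrg1 held 3. TAATTA, the core bound by many homeodomain factors, and CAGCTG, an E-box bound by proneural factors, were searched in the same windows. Each reads the same on both strands. TAATTA was in 1 of the 27 windows, that of Gabrg1, against 5.29% of all windows, and CAGCTG was in those of Glra3 and Nlgn2, against 16.3%. The Gabrg1 stretch is shown because that gene was level between the libraries while its neighbour Gabra2 was higher, although their ratio did not differ beyond counting error (1.32-fold, 0.917 to 1.89). It is read 5′ to 3′ on the minus strand, with the 2 overlapping copies of TAATTA in capitals, 172 bases from the start.
Gabrg1, chr5:70842618-70842867: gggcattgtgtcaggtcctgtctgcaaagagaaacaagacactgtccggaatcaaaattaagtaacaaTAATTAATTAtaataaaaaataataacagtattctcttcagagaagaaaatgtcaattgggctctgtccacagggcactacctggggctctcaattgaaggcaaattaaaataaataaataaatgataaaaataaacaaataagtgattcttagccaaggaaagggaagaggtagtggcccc
A match is a run of letters and not a known binding site.

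Alpha subunits line the GABA binding pocket, and 3 of the 4 on the list were higher. Gabra2, the alpha subunit of many synapses on the cell body and axon, gave 426 and 569 reads, or 0.36 in log2 ratio (0.18 to 0.55). Gabra3, an alpha subunit on the X chromosome, gave 291 and 375 reads and lay at 0.31 (0.085 to 0.54). Gabra5, the alpha subunit of tonic, extrasynaptic inhibition in the hippocampus, gave 178 and 232 reads and lay at 0.32 (0.038 to 0.62). These 3 were higher beyond counting error by similar amounts, but with the ventral telencephalic median set to 0 they lay at -0.082, -0.13 and -0.12. Gabra4, an alpha subunit of extrasynaptic receptors in thalamus and striatum, gave 134 and 137 reads, with its log2 ratio at -0.025 (-0.38 to 0.33). The alpha median was 0.32, and 0.13 with the pan-neuronal median set to 0.

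Levels were compared between the alpha genes per kb of exon, in TMM-scaled CPM, reads scaled to a common library size. Gabra3 was at 8.65 and 10.7, Gabra5 at 6.98 and 8.75, Gabra2 at 6.50 and 8.35, and Gabra4 at 2.57 and 2.52. The order of these 4 values was thus the same in both libraries, with Gabra4 the lowest. Gabra5 and Gabra2 were close, and whether their levels differed beyond counting error was not tested.

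Beta and gamma subunits were uneven. Gabrb1, a beta subunit, gave 186 and 282 reads, with its log2 ratio at 0.54 (0.27 to 0.82). Gabrb2, the most common beta subunit of the adult brain, gave 292 and 331 reads and lay at 0.12 (-0.11 to 0.36). Per kb, Gabrb1 was at 1.57 and 2.28 and Gabrb2 at 5.35 and 5.83. Gabrg3, a minor gamma subunit, gave 47 and 85 reads and lay at 0.79 (0.27 to 1.34), or 1.73-fold higher. Gabrg1 gave 73 and 74 reads and lay at -0.037 (-0.52 to 0.45). Per kb, Gabrg1 was at 1.08 and 1.05 and Gabrg3 at 0.459 and 0.799, so Gabrg3 had the lower value in each library. In the knockout library Gabrg3 had more reads, 85 against 74, so the order there rests on exon length. Whether these levels differed beyond counting error was not tested.

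Subunits of rarer receptors were near the limit of this depth. Gabrd, the delta subunit of extrasynaptic receptors, gave 16 and 14 reads, with its log2 ratio at -0.24 (-1.39 to 0.88). Gabre, the epsilon subunit found mainly in hypothalamus and brainstem, gave 14 and 29 reads and lay at 0.97 (0.028 to 2.03), an interval whose lower end nearly reached 0. Gabrq, the theta subunit with a similar distribution, gave 34 and 49 reads and lay at 0.46 (-0.19 to 1.15). No difference was detectable for Gabrd or Gabrq at these counts.

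**Figure D2:**
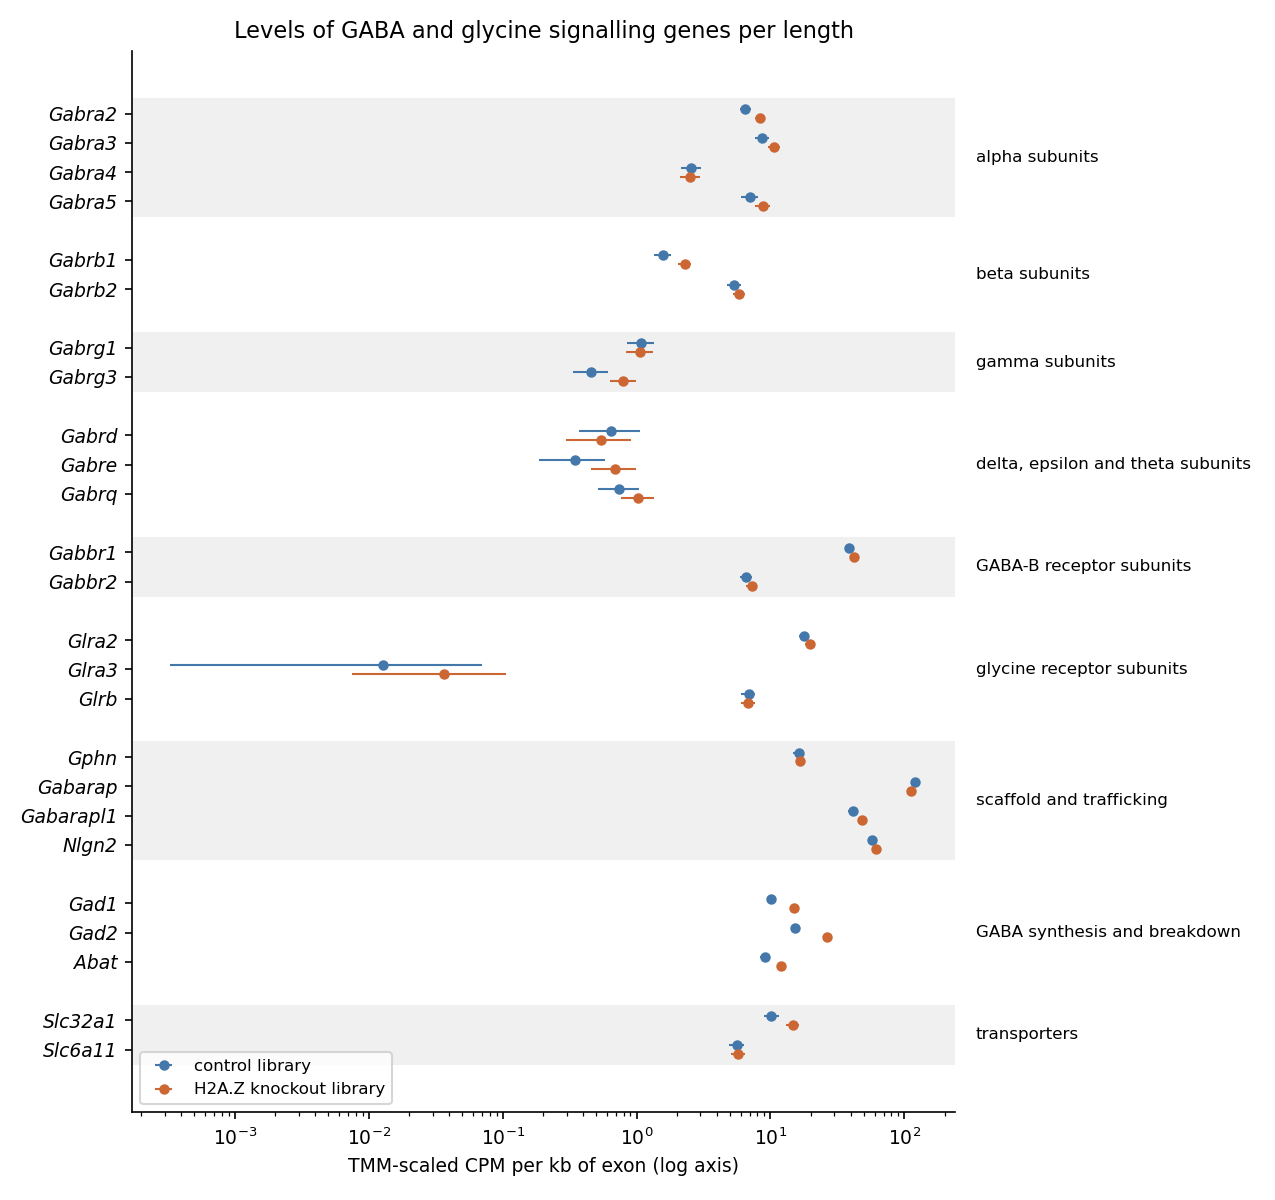
TMM-scaled CPM per kb of exon (log axis) for the 25 genes with a row in the table, control library in blue and knockout library in orange, with exact 95% Poisson intervals of the read count. Gabarap is the highest in both libraries at 120.7 and 112.8, and Glra3 the lowest.

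Many GABA-A subunit genes lie in chromosomal clusters, and neighbours could differ. On chromosome 5, over 1398 kb, the order is Gabrg1, Gabra2, Gabra4, Gabrb1. Gabra2 and Gabrb1 were higher beyond counting error, and Gabrg1 and Gabra4 were not. Reads of Gabra2 differed 1.32-fold relative to Gabrg1 (0.917 to 1.89) and 1.31-fold relative to Gabra4 (0.989 to 1.73). Both intervals include 1. Gabra4 and Gabrb1 are read head to head, and their exons share 46 bases on opposite strands. Gabrb1 reads per Gabra4 read were 1.39 in control and 2.06 in knockout, a 1.48-fold difference (1.08 to 2.03). On chromosome 7 Gabrg3 and Gabra5 were both higher, and reads of Gabra5 per Gabrg3 read differed 0.721-fold with an interval of 0.469 to 1.10 that includes 1. On the X chromosome the reads of Gabra3 per Gabre read differed 0.622-fold, with an interval of 0.298 to 1.24 that includes 1. Of 6 pairs of neighbours, 1 differed beyond counting error, that of Gabrb1 and Gabra4.

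**Figure D3:**
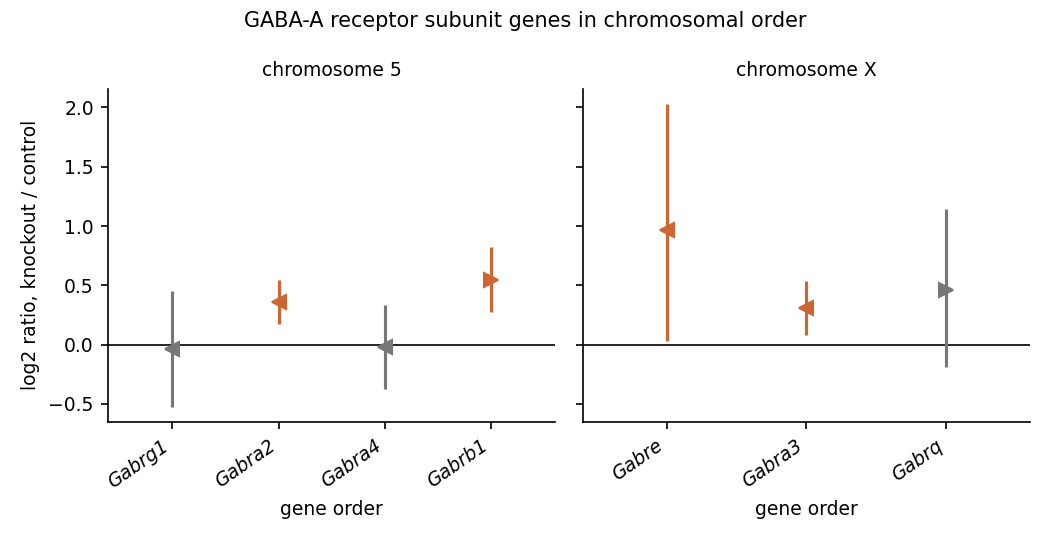
Log2 ratio of knockout to control for GABA-A subunit genes of chromosomes 5 and X in chromosomal order (equal spacing), with exact 95% intervals; arrowheads point in the direction of transcription, and orange marks intervals that exclude 0. Gabrb1 and Gabra4, side by side on chromosome 5, are at 0.54 and -0.025.

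GABA-B receptor genes were close to level. Gabbr1, the subunit that binds GABA, gave 2575 and 2891 reads, or 0.11 in log2 ratio (0.033 to 0.19), which was -0.081 with the pan-neuronal median set to 0. Gabbr2, the subunit that couples to G proteins, gave 376 and 432 reads and lay at 0.14 (-0.059 to 0.35). The median of both was 0.13 and was -0.064 with the pan-neuronal median set to 0. Per kb, Gabbr1 was at 38.7 and 41.7 and Gabbr2 at 6.56 and 7.24, so the subunit that binds GABA exceeded its partner in both libraries. Reads of Gabbr2 per Gabbr1 read were 0.146 and 0.149, a ratio of 1.02 (0.880 to 1.19).

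The 2 measured glycine receptor genes did not differ beyond counting error. Glra2, the alpha subunit of embryonic receptors, gave 480 and 552 reads and lay at 0.14 (-0.034 to 0.32). Glrb, the beta subunit that binds gephyrin, gave 274 and 282 reads and lay at -0.015 (-0.26 to 0.23). Glra2 reads per Glrb read were 1.75 in control and 1.96 in knockout, a 1.12-fold difference (0.904 to 1.38). Among the glycine receptor genes with a row, Glra2 was the highest per kb in both libraries, at 17.8 and 19.6 against 6.86 and 6.79 for Glrb.

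Scaffold and trafficking genes were abundant and close to level, with a median of 0.067 that was -0.12 with the pan-neuronal median set to 0. Gphn, the gene of gephyrin, the scaffold under inhibitory synapses, gave 521 and 560 reads, or 0.048 in log2 ratio (-0.13 to 0.22). Nlgn2, the neuroligin of inhibitory synapses, gave 2857 and 3156 reads and lay at 0.087 (0.014 to 0.16), or -0.104 with the pan-neuronal median set to 0. Gabarap, a ubiquitin-like protein of autophagy that also binds GABA-A receptors, gave 1909 and 1856 reads and lay at -0.097 (-0.19 to -0.0042). Gabarap was no longer beyond counting error when scaled by DESeq2 size factors or the upper quartile. Its relative Gabarapl1 gave 710 and 860 reads and lay at 0.22 (0.075 to 0.37), or -0.22 with the ventral telencephalic median set to 0, and 570 of its 2013 exon bases are shared with 1700101I11Rik on the opposite strand. Gabarapl1 reads per Gabarap read were 0.372 and 0.463, a 1.25-fold difference (1.11 to 1.40). Reads of Gphn per Nlgn2 read did not differ beyond counting error, at a ratio of 0.973 (0.853 to 1.11).

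Other genes of the inhibitory synapse were higher more often than lower. On a list of 33 further genes, 25 were measured, with a median log2 ratio of 0.12, which was -0.068 with the pan-neuronal median set to 0. Of the 25, 10 were higher beyond counting error and 1, Slc6a13, lower, against 12.5% and 9.3% of all measured genes. Apart by 1.5-fold were Hap1 and Kctd16, higher, and Slc6a13, lower. Kctd16 and Slc6a13 reached the read minimum only through the library in which they were higher, so their direction was fixed by that minimum. Hap1, which encodes a huntingtin-associated protein that carries GABA-A receptors along microtubules and is abundant in the hypothalamus, gave 698 and 1405 reads, which is 1.93-fold higher (1.77 to 2.12). Kctd16, an auxiliary GABA-B subunit gene with 7 and 15 reads, was the other one higher, within counting error. Slc6a13, a GABA transporter gene of meninges, gave 46 and 3 reads, which is 13.8-fold lower (5.13 to 80.2).

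Chloride transport, which decides whether GABA excites or inhibits, was looked at after its values were seen. Slc12a5, the neuronal chloride exporter, gave 495 and 670 reads, or 0.38 in log2 ratio (0.21 to 0.55). Slc12a2, the chloride importer of immature neurons and other cells, gave 712 and 721 reads and lay at -0.038 (-0.19 to 0.11). Slc12a5 reads per Slc12a2 read were 0.695 and 0.929, a 1.34-fold difference (1.14 to 1.57).

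Many markers of brain regions that hold GABAergic neurons were also higher in the knockout library. All 22 genes of the ventral telencephalic list were measured. At least 1.5-fold higher were 8 and lower 0, against 3.52% and 5.43% of all measured genes. The median log2 ratio of the 22 genes was 0.44. Their summed level was 1126 and 1561 CPM. Isl1, Dlx6 and Nkx2-1, transcription factor genes of ventral forebrain, were furthest from 0, at 1.65, 1.58 and 1.46. On the list of 22 diencephalic, midbrain and hindbrain genes the summed level was 77.4 and 216 CPM. Of its 11 measured genes several, such as Shox2 and Gata3, reached the read minimum only through the knockout library and so had to be higher, and no count over that list is given. Shox2, with 0 and 85 reads, was 27.2-fold higher when set against a floor of 3 control reads. The lower end of its log2 interval was 4.44. Tcf7l2, abundant in thalamus, had 111 and 1017 of the list's 664 and 1927 reads. Gata3, which marks midbrain GABAergic and other neurons, had 2 and 23 reads. Sox14 and En1, 2 further genes on that list, were at 0 reads in the control library and at 19 and 5 in the knockout library. Neither of them reached the read minimum. Lhx9 and Barhl2, also on that list, were level, at 363 and 377 reads and at 89 and 92 reads. The part of these regions in the result for the GABA genes was not tested.

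Markers of cortical excitatory neurons and of surrounding tissues differed in other ways. On the list of 13 cortical glutamatergic genes 0 were apart by 1.5-fold, against 3.52% of all measured genes higher and 5.43% lower. The summed level was 3491 and 3405 CPM. Neurod1, Fezf2 and Slc17a7, which mark stages or layers of excitatory neurons, were furthest from 0 at -0.31, -0.22 and -0.21. Of 20 pan-neuronal genes 19 were above 0, against 50.4% of all measured genes, with a median of 0.19 and a summed level of 11089 and 12538 CPM. Beyond counting error 18 of the 20 were higher, against 12.5% of all measured genes. Nefl, Ina and Nefm, genes of neuronal intermediate filaments, were furthest from 0 at 1.11, 0.43 and 0.40. On the list of 15 genes of meninges and choroid plexus the summed level was 1016 and 24.2 CPM. Ttr, Folr1 and Clic6 were furthest from 0, with 6025 and 12, 54 and 1, and 227 and 6 reads. Several of these genes, such as Folr1 and Clic6, reached the read minimum only through the control library. They had to be lower, and no count over that list is given. Foxc1, with 50 and 42 reads, was within counting error. No gene of the 3 lists was at 0 reads in either library. The part of these tissues in the result was not tested.

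**Figure D4:**
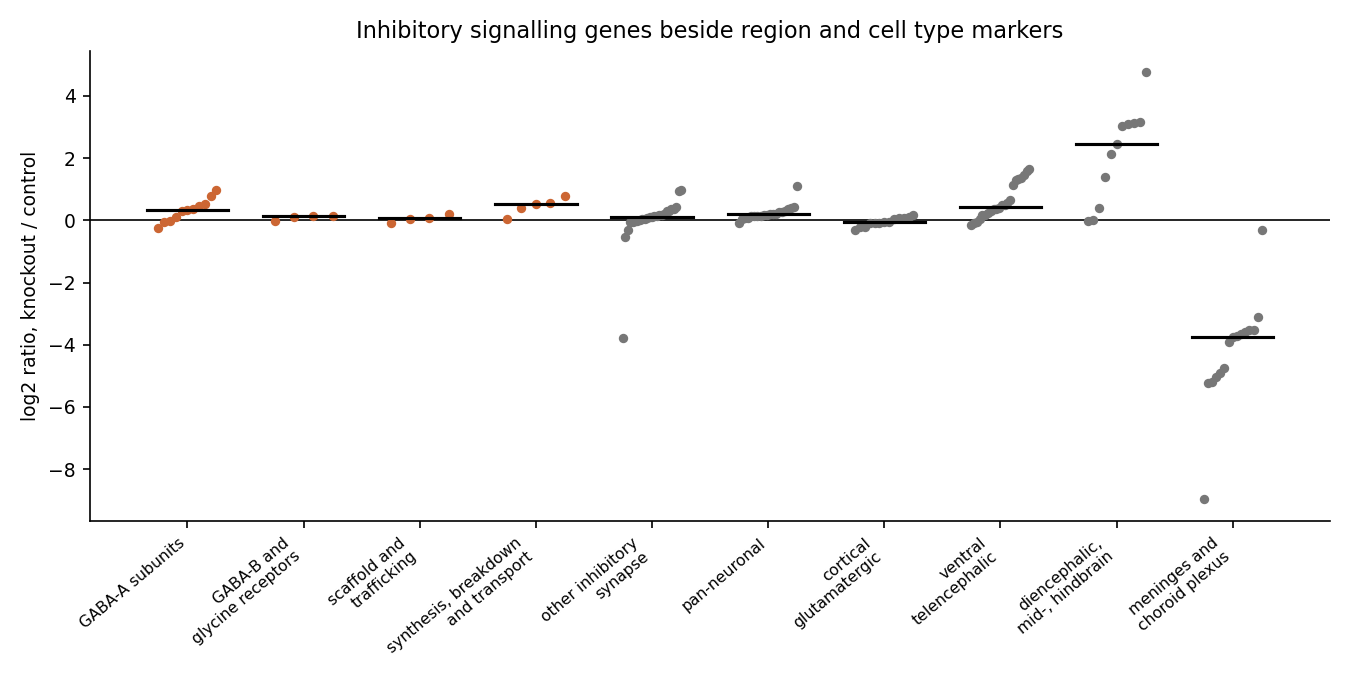
Log2 ratio of knockout to control for each measured gene of the list of 26 (orange, 4 groups) and of 6 other lists (grey), with the median of each group as a line; a gene at 0 reads in the control library is drawn at its value against a floor of 3 reads. The synthesis, breakdown and transport genes reach 0.78, and the ventral telencephalic genes reach 1.65.

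The members were also set against these lists within each library. Per 1000 reads of cortical glutamatergic markers, Gad2 had 25.8 reads in control and 45.3 in knockout, a 1.75-fold difference (1.60 to 1.92; 95% interval of the odds ratio). Per 1000 reads of ventral telencephalic markers the values were 80.0 and 98.8, a 1.23-fold difference (1.13 to 1.35). For Gad1 the difference relative to ventral markers was 1.06-fold (0.961 to 1.18), and for Slc32a1 it was 1.04-fold (0.881 to 1.22). The intervals of Gad1 and Slc32a1 thus included 1 and that of Gad2 did not. Intervals against a list cover the counting error of its summed reads and not the spread among its genes. On the ventral list the log2 ratios of single genes ran from -0.14 to 1.65. Whether Gad2 differed from the ventral genes beyond that spread was not tested. Slc6a11 was lower relative to the ventral markers, at 0.739-fold (0.620 to 0.883).

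The 11 GABA-A subunit genes together had 1691 and 2177 reads. They differed 1.09-fold relative to pan-neuronal markers (1.03 to 1.17), 1.27-fold relative to cortical glutamatergic markers (1.19 to 1.36) and 0.893-fold relative to ventral markers (0.834 to 0.957). Relative to the first 2 lists they were thus higher, and relative to the ventral list lower. GABA-B subunit genes differed 0.958-fold relative to pan-neuronal markers (0.911 to 1.01) and glycine receptor genes 0.943-fold (0.854 to 1.04). Scaffold and trafficking genes, which many cell types use, differed 0.912-fold (0.880 to 0.946).

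**Figure D5:**
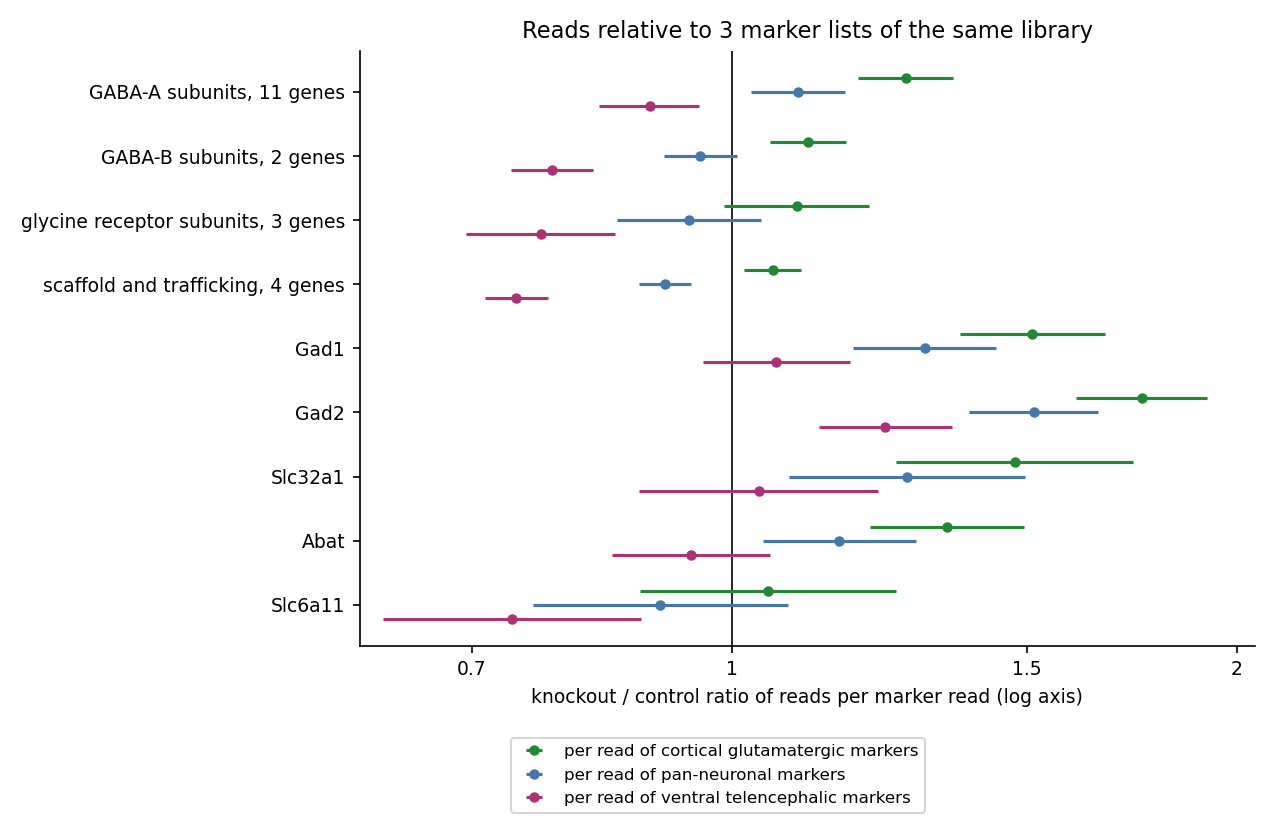
Knockout to control ratio of reads per read of a marker list, for receptor groups and single genes (log axis), with 95% intervals of the odds ratio; colours give the marker list. Gad2 is above 1 against all 3 lists, at 1.75, 1.51 and 1.23. The intervals leave out the spread among the genes of a list.

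Of the 25 genes, 0 were marked significant in the authors' deposited table, against 1.61% of all genes, and 7 had an adjusted p below 0.05, against 7.42% of all genes. The lowest of these, in the authors' deposited table, was 1.28e-28 for Gad2, followed by 2.83e-11 for Gad1 and 0.000157 for Abat. The test behind these values is not named in the sources at hand, and it compares 1 library with 1 library.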

How the data were processed

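RNA was sequenced from embryonic mouse brain of 2 genotypes, 1 library each, with TruSeq libraries made per the labels' protocols. HTSeq 0.6.0, TopHat2 2.0.12, Bowtie2 2.2.3 and the build mm9 are listed, without roles, per the submitters' processing notes. Positions of 23 of the 25 genes in the table were identical to GENCODE M21 on GRCm38, so coordinates are given as GRCm38. Raw read counts per gene were deposited by the authors, per the file headers, and the table lists no gene with 0 reads in both libraries. The authors' deposited CPM divide each count by a constant per sample, with 0 entered as 0.5 read. The authors' deposited fold ratio and its log2 are control over knockout, and their p-values come from a test not given in the sources used here. Strand setting, pooling and the handling of multiply matching reads are not given either, so reads of Gabarap relatives, and of genes with opposite-strand partners, are uncertain. Slc32a1 shares 697 of 2797 exon bases with Gm14205, Gabarapl1 570 of 2013 with 1700101I11Rik, and Gabra5, Gphn, Gabra4 and Gabrb1 share at most 148.

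Counts were scaled by TMM in edgeR 4.0.16 (R 4.3.3), and log2 ratios used a prior of 0.5 read. No test between genotypes was possible with 1 library each. For genes at 0 reads in 1 library, folds use 3 reads there as the floor. Exon lengths are unions of GENCODE M21 exons. Intervals came from scipy 1.17.1, tables from pandas 2.3.3 and numpy 2.4.6 and plots from matplotlib 3.10.9, under Python 3.11.15. Symbols were matched for 19616 gene IDs and not for 104. Counts for the knockout against the control were simulated on 14215 genes, with counting error only and no variation between animals. In them, 93 of 100 genes with 2-fold changes and 98 of 100 with 4-fold changes were called beyond counting error. Of 14015 unchanged genes 638 were. These numbers give no rate of false calls for animals, whose variation the simulation left out. The 26 genes, the 6 other lists and the pairs were chosen with earlier results of these data known. Named genes are the 26, H2afz, H2afv, genes of the further inhibitory list at least 1.5-fold apart, and the 3 genes furthest from 0 in each marker list. Slc12a5, Slc12a2, Sox14, En1, Lhx9, Barhl2 and Foxc1 were named after their values were seen. Some genes of the lists are not reported here and enter no list or pair. Alternatives were scaling by library total, DESeq2 1.42.0 size factors, the upper quartile or a list's median, another prior, another read minimum, and a 2-fold limit.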

Additional observations from a re-analysis of the deposited data

How the results depend on the processing

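No paired analysis was possible because each genotype has 1 library, and no library could be left out. The delta, epsilon and theta class has no median at a minimum of 100 reads. With scaling by library total, DESeq2 size factors or the upper quartile, or a prior of 5 reads, the log2 ratios of all 24 measured genes stayed within counting error of the values given. The median over these genes, 0.18, was 0.15 by library total, 0.22 at a minimum of 1 read and 0.14 at 100 reads. That of the further inhibitory list, 0.12, was 0.088 by library total and 0.087 at 1 read. By library total, 10 of the 13 genes higher beyond counting error kept that call, without Gabre, Gabbr1 and Nlgn2. The count lower beyond counting error was 0 by DESeq2 or the upper quartile. Of the 24 measured genes, 0 were 2-fold higher. The share of all measured genes at 2-fold was not counted, and at 1.5-fold it was 3.52%, so little can be read from this count.

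Setting the pan-neuronal median to 0 moved the median of all measured genes to -0.19. The median of the 24 genes turned to -0.0087, that of GABA-B genes to -0.064, of scaffold genes to -0.12 and of the further list to -0.068. Medians of the alpha, beta, synthesis, transporter and glycine receptor classes moved to 0.13, 0.14, 0.37, 0.088 and -0.13. In this setting 6 genes were higher beyond counting error and 3 lower, and Gabbr1 at -0.081 and Nlgn2 at -0.10 reversed. The share of all measured genes called in this setting was not counted.

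Setting the ventral telencephalic median to 0, chosen after seeing the data, moved the median of all measured genes to -0.44 and that of the 24 genes to -0.26. Then 1 gene, Gad2, was higher beyond counting error and 11 were lower, 0 were at least 1.5-fold higher and 1 was lower by that limit. Shares of all measured genes were not counted in this setting, so these counts have no background. Gabra2, Gabra3, Gabra5, Gabbr1, Gabarapl1, Nlgn2 and Abat reversed, to -0.082, -0.13, -0.12, -0.33, -0.22, -0.36 and -0.052. Setting a list median to 0 subtracts 1 constant from every gene, so these reversals follow from its construction; for the other settings the cause was not tested. Depth limits the rarer subunits: half-widths of the intervals ran from 0.074 for Nlgn2 to 1.14 for Gabrd on the log2 scale.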
